A study of Rattus norvegicus with 4 samples.

Results

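Amh, Fshr, Wt1, Gata1, Gata4 and Nr5a1 are genes by which the Sertoli cell of the testis and its state of maturation are commonly followed. They were chosen by name, and every probe set whose platform annotation gives exactly 1 of these symbols was taken. This gave 10 probe sets of 6 genes, out of 8799 probe sets on the array. Wt1 had 3 probe sets, Fshr and Gata4 had 2 each, and Amh, Gata1 and Nr5a1 had 1 each.

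The study compared testis RNA of male Sprague Dawley rats, an outbred laboratory strain, given an FSH antibody made in sheep for 4 days with that of rats given control sheep IgG for 4 days. There were 4 RNA samples, 2 for each treatment, and each was hybridised to its own array, a rat U34 array, set A, of Affymetrix. The labels disagree on age: the series design starts treatment at day 14, the source names give day 18, the treatment protocol starts injections at day 18 and collects at day 22, and for antibody replicate 2 the title reads postnatal day 4. The extract protocol describes pools of about 20 organs, which it calls ovaries, while each source name gives 1 male rat, so the labels do not settle how many animals an array stands for, and the p-values below measure the spread between these 4 RNA samples.

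Follicle-stimulating hormone (FSH) reaches the testis from the pituitary and binds a receptor that, in the testis, is made by Sertoli cells, the somatic cells that enclose and nourish the germ cells. The receptor, encoded by Fshr, signals through a stimulatory G protein and cyclic AMP. Immature Sertoli cells secrete anti-Müllerian hormone, encoded by Amh, and output falls as the cells mature towards puberty. WT1, GATA4 and NR5A1 (also called steroidogenic factor 1) are transcription factors that act on the Amh gene in mouse and in cultured cells. GATA1, known as the regulator of red cell genes, is also made by mouse Sertoli cells from the first wave of spermatogenesis onwards.

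The DNA before 3 of the genes is shown because it joins the measured factors to the hormone and the receptor: NR5A1 and GATA factors are known to act through short motifs before Amh, and E-box binding factors through a motif before Fshr and Nr5a1. Each stretch is the 250 bases before the gene's start, read 5′ to 3′ on the gene's own strand, from RefSeq on build GRCr8. The table held a promoter for 5 of the 6 genes. The stretches lie at chr7:9559868-9560117 (minus strand) for Amh, chr6:10952079-10952328 (plus strand) for Fshr and chr3:42896047-42896296 (minus strand) for Nr5a1. Capitals mark AAGGTCA (the NR5A1 motif searched), GATA (the core of the GATA motif) and CACGTG (the E-box), each searched on both strands; a GATA match on the opposite strand reads TATC.
Amh: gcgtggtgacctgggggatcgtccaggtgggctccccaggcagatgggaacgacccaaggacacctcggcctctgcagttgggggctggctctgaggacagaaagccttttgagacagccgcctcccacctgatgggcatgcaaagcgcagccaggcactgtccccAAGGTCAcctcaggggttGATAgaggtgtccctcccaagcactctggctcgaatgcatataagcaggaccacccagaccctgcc
Fshr: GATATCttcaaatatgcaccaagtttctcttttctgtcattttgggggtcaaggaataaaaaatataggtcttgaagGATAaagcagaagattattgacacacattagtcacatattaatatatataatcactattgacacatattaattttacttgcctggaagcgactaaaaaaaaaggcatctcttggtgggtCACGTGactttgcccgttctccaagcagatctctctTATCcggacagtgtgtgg
Nr5a1: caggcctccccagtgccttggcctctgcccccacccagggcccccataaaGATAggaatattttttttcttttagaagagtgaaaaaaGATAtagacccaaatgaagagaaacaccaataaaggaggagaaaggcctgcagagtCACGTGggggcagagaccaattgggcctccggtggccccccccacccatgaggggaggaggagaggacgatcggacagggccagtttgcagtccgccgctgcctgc

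In Amh the NR5A1 motif starts 84 bases and the GATA core 66 bases before the gene's start. AAGGTCA occurs in 3.99% of the 33469 promoters of the table when windows of this length are searched, and GATA in 55.9%. The CACGTG motif starts 54 bases before the start of Fshr, 106 bases before that of Nr5a1 and 157 bases before that of Wt1, and is found in 5.59% of promoters. Of the 5 promoters, only that of Amh held AAGGTCA. The cyclic AMP response element TGACGTCA was found in none of the 5 and in 1.59% of all promoters; no match says only that these letters are not in this window.

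Amh was higher on both FSH antibody arrays than on both control arrays, by 1.44 times, and it was the one member with an unadjusted p under 0.05. It did not pass the adjustment over all probe sets, and neither did any other member: of the 9 member probe sets bright enough to be tested, 0 were called by limma at an adjusted p under 0.05, and 1 had an unadjusted p under 0.05. Over the whole array 14 of 5252 tested probe sets were called, 0.267%, and 8.11% had an unadjusted p under 0.05. On their tested probe sets the transcription factor genes and Fshr differed less between the treatments than between the arrays of 1 treatment, or by at most 1.07 times. Values are deposited intensities, log2 changes are antibody minus control ± SE on log2(intensity + 16), which understates changes of dim probe sets, and each group has 2 arrays.

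The hormone gene Amh (S98336cds_at) had intensities of 753.6 and 758.1 on the antibody arrays, against 544.4 and 498.4 on the control arrays. Both antibody values lay above both control values, and the antibody arrays were closer to each other than the control arrays were. The means were 756 ± 3.18 after the antibody and 521 ± 32.5 after control IgG (SD, n = 2). The log2 change was 0.52 ± 0.16, with a 95% interval from 0.16 to 0.89, which is 1.12 to 1.85 times (limma, unadjusted p = 0.00971, adjusted p = 0.437). By unadjusted p it ranked 116 of the 5252. Groups lying apart with the antibody higher is common on these arrays, at 21.9% of tested probe sets. As Amh has 1 probe set, no second measurement of it was at hand. In bulk tissue, a change in the share of a cell type and a change in RNA per cell cannot be told apart.

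**Figure D1:**
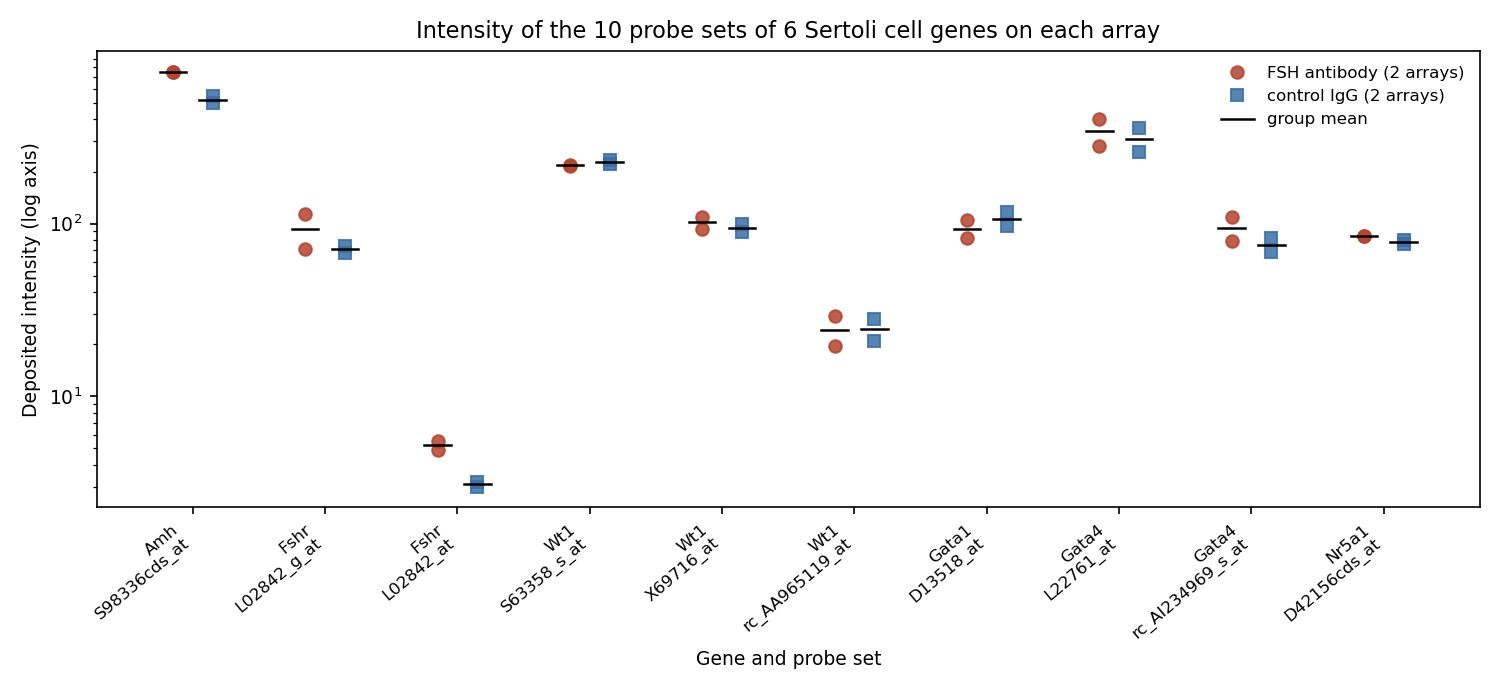
Deposited intensity (log axis) of each of the 10 probe sets, with circles for the 2 FSH antibody arrays, squares for the 2 control IgG arrays and a line at each group mean. For Amh the antibody arrays (753.6 and 758.1) lie above the control arrays (544.4 and 498.4), while for Gata4, Gata1 and the brighter Fshr probe set the groups overlap.

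The receptor gene Fshr was read by a pair of probe sets designed from the same sequence. On L02842_g_at the antibody arrays had 114 and 71.6, against 67.9 and 74.1 on the control arrays. Antibody replicate 1 stood apart, and antibody replicate 2 lay between the control arrays. The log2 change was 0.30 ± 0.22, with an interval from −0.19 to 0.78 (adjusted p = 0.805). Without antibody replicate 1 it was 0.011, and without antibody replicate 2 it was 0.58. On L02842_at the intensities were 5.5 and 4.9 after the antibody and 3 and 3.2 after control IgG. This probe set was under the level for testing (a mean log2 value of 5.30, or an intensity of about 23.4), at the 10.7th percentile of the array, and its log2 change of 0.15 is given with no test. With no filter on dim probe sets its adjusted p was 0.708.

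Wt1 encodes a zinc finger transcription factor that Sertoli cells need for their identity and upkeep. Its brightest probe set, S63358_s_at, gave 216.6 and 217.4 on the antibody arrays, against 233 and 221 on the control arrays. The groups lay apart with the antibody lower, as in 15.5% of tested probe sets, and the antibody level was 0.96 times the control level. On X69716_at the antibody arrays had 109.8 and 93, against 99.3 and 88.9 on the control arrays, and on rc_AA965119_at the antibody arrays had 29 and 19.5, against 27.9 and 20.9 on the control arrays. Both of these pairs of groups overlap. The log2 changes were −0.060 ± 0.17, 0.091 ± 0.18 and −0.010 ± 0.23, with adjusted p from 0.933 to 0.993. The signs differ between probe sets, and the intervals reach from −0.43 to 0.31 on the brightest and from −0.54 to 0.52 on the dimmest, so a change of Wt1 as large as that of Amh was outside the interval on the brightest probe set.

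Gata4 encodes a zinc finger factor of fetal and postnatal Sertoli cells and of Leydig cells. On L22761_at the antibody arrays had 405.3 and 279.3, against 355.9 and 260.5 on the control arrays. In each treatment replicate 1 was higher than replicate 2, by more than the treatments differed. On rc_AI234969_s_at the same order held, with 108.9 and 79.3 after the antibody and 82.3 and 68.7 after control IgG. The log2 changes were 0.14 ± 0.22 and 0.26 ± 0.20 (adjusted p = 0.922 and 0.815). That of L22761_at turned to −0.12 without antibody replicate 1 and to −0.076 without control replicate 2.

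Gata1, in the testis a factor of Sertoli cells, was lower on average after the antibody. D13518_at had 104.9 and 82 on the antibody arrays, against 96.2 and 116.5 on the control arrays. The groups overlap, and antibody replicate 1 was above control replicate 1. The log2 change was −0.16 ± 0.19, with an interval from −0.59 to 0.26 (adjusted p = 0.880).

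Nr5a1 encodes a nuclear receptor that switches on steroid enzyme genes in Leydig cells and acts with WT1 and GATA4 on Amh. D42156cds_at had 84.2 and 85 on the antibody arrays, against 76.4 and 80.3 on the control arrays. The groups lie apart, with antibody replicate 1 just above control replicate 2. The log2 change was 0.093 ± 0.17 (1.07 times), with an interval from −0.29 to 0.48 (adjusted p = 0.932).

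**Figure D2:**
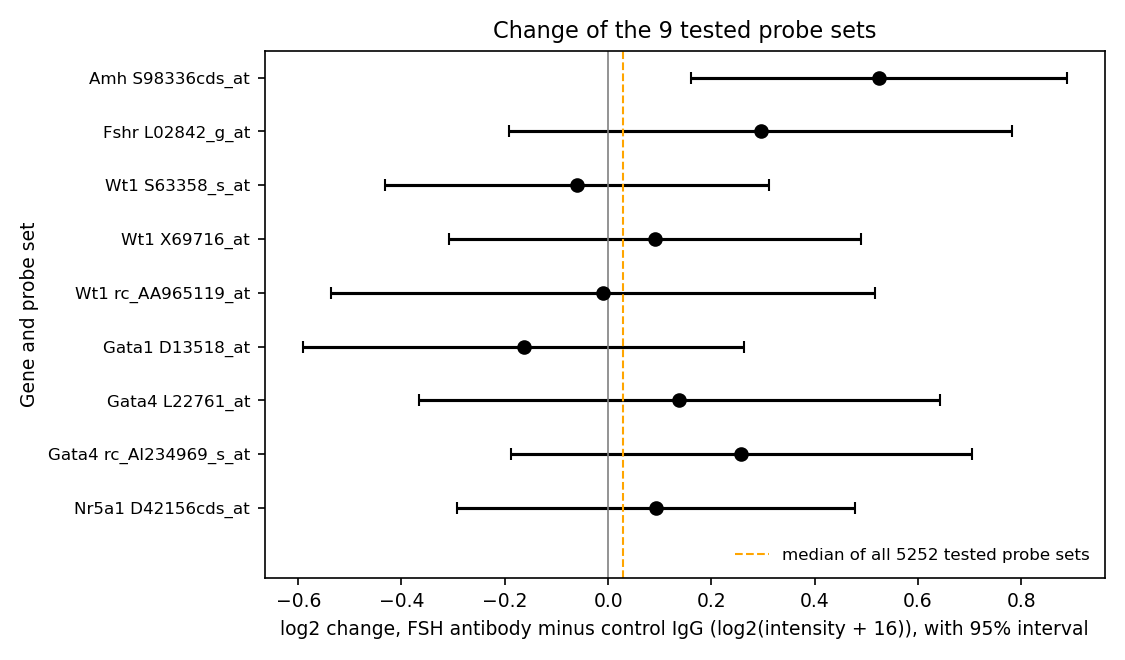
log2 change of the 9 tested probe sets, antibody minus control, with the 95% interval from limma, a grey line at 0 and a dashed line at the median of all 5252 tested probe sets (0.029). The interval of Amh (0.16 to 0.89) lies above 0, and those of the other 8 include 0.

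Taken over the 9 tested probe sets, 6 had a log2 change above 0 and 3 below, with a median of 0.093. Over all tested probe sets the median was 0.029 and 55.3% were above 0. The smallest change called anywhere on the array was 1.01 in size, and the upper bound of each member's interval lay below that, so changes of the size that was called were outside the intervals of all 9 probe sets on the side of an increase. On the side of a decrease the lowest bound was −0.59, that of Gata1. The member that passed no filter, L02842_at of Fshr, is not among these counts.

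Amh was then set against each other member within each array, so that a shared shift of an array drops out. Relative to Wt1 S63358_s_at, Amh was 0.58 and 0.59 (log2) above the control mean on the antibody arrays, against 0.026 and −0.026 on the control arrays. Relative to Nr5a1 the values were 0.43 and 0.43 on the antibody arrays, against 0.092 and −0.092 on the control arrays. Relative to Gata1 they were 0.53 and 0.84 on the antibody arrays, against 0.18 and −0.18 on the control arrays. The mean difference ran from 0.23 relative to Fshr to 0.69 relative to Gata1. The groups lay apart for 6 of the 8 comparisons and overlapped for Fshr and for Gata4 L22761_at. When Amh was set against each other tested probe set of the array in this way, the groups lay apart with the antibody higher for 84.4%, so a share of this size is not particular to these genes.

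**Figure D3:**
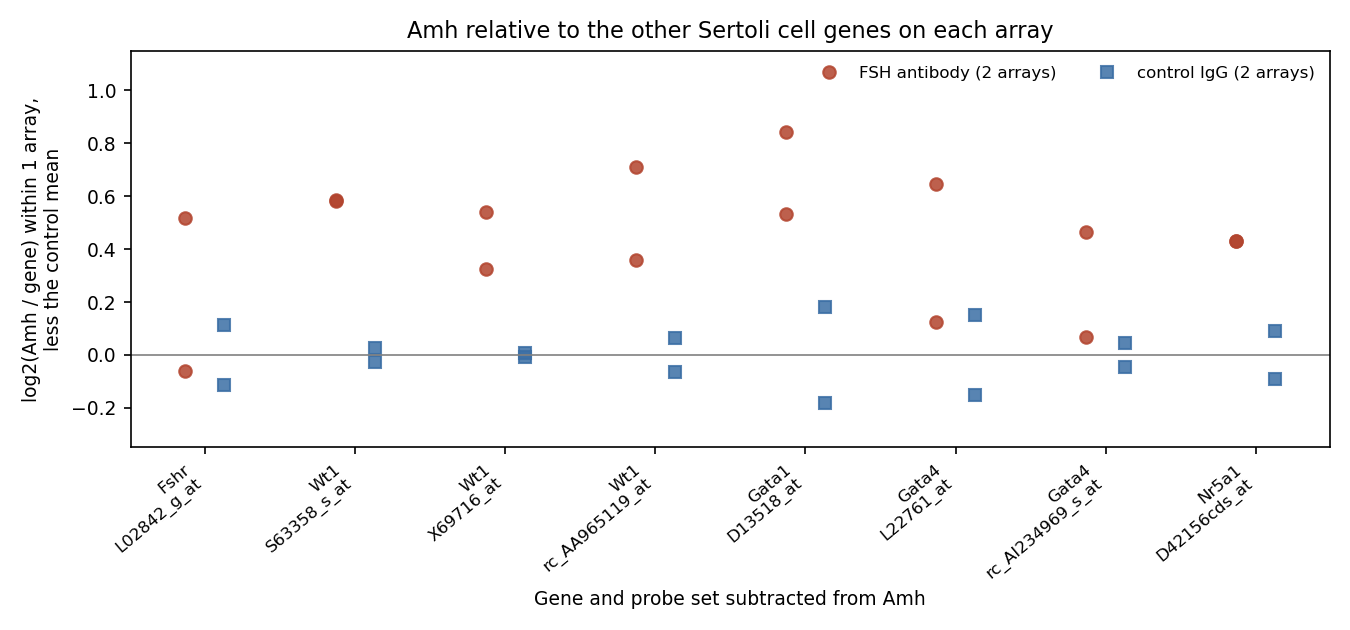
log2 of Amh over each other member within 1 array, less the mean of the control arrays, with circles for FSH antibody arrays, squares for control IgG arrays and a grey line at 0. The antibody arrays lie above the control arrays for Wt1, Gata1, Nr5a1 and 1 Gata4 probe set, and overlap them for Fshr and the other Gata4 probe set.

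The genes whose pattern over the 4 arrays was nearest to that of Amh were Cdh2, Rxrb and Mgat1, by the root mean square difference of log2 values centred on their mean, among 4349 tested probe sets with 1 symbol. Cdh2 encodes the adhesion protein N-cadherin, Rxrb a retinoid X receptor and Mgat1 a Golgi enzyme of N-glycan synthesis. Their distances were 0.0152, 0.0199 and 0.0233, against a spread of Amh itself of 0.265. Rxrb had 115.7 and 120.6 on the antibody arrays, against 79.5 and 72.2 on the control arrays. Its log2 change was 0.55 ± 0.17 (adjusted p = 0.446), and those of Cdh2 and Mgat1 were 0.54 and 0.54 (adjusted p = 0.469 and 0.448). A second probe set of Cdh2 gave 0.48, and the other probe sets of Mgat1 gave 0.28 and 0.39. The nearest patterns to the remaining members were Pop1, Abcc1 and Csf2rb for Fshr, Usf1, Vcp and Fancc for Wt1, Rab4b, Scn4a and Asf1b for Gata1, Map3k9, Lgals3bp and Acsl1 for Gata4, and Eif2b4, Rab14 and Lamp1 for Nr5a1, at distances from 0.0066 to 0.0729. With 4 arrays such likeness is a description and many genes come close.

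Downstream of Amh, its type II receptor Amhr2 had 525.1 and 510.8 on the antibody arrays, against 511.6 and 543.3 on the control arrays, a log2 change of −0.025 ± 0.16 (adjusted p = 0.979). Amhr2 is the receptor that binds the hormone, and its groups overlap. Of 14 listed genes of the AMH and BMP receptor pathway, 9 were tested on their brightest probe set. Of the 9, 5 were higher, 4 lower and none was called, with a median of 0.0073. At an unadjusted p under 0.05 there were 2, against 8.11% of all tested probe sets. These were Id3, an inhibitor of helix-loop-helix factors and a BMP target, with 225.7 and 398.1 after the antibody and 187.2 and 120.4 after control IgG (0.93 ± 0.28, adjusted p = 0.411), and Smad9, a BMP signal transducer, with 9.9 and 24 after the antibody and 52.9 and 35.1 after control IgG (−0.88 ± 0.27, adjusted p = 0.437). The antibody mean of Smad9, 16.95, was under the level for testing (an intensity of about 23.4), which Smad9 passed through its control arrays. A second Id3 probe set gave 0.43. Bmpr1a, a type I receptor that serves AMH, gave −0.41 ± 0.22 (adjusted p = 0.693).

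Downstream of the FSH receptor, 20 of 28 listed signalling genes were tested, of which 9 were higher, 11 lower and none was called, with 1 at an unadjusted p under 0.05 and a median of −0.039. Pde4b, a phosphodiesterase that breaks down cyclic AMP, had the smallest p, with 113.3 and 72.4 on the antibody arrays, against 252.6 and 223.4 on the control arrays (−1.25 ± 0.21, adjusted p = 0.0561). Its other tested probe set gave −0.59. Crem, a cyclic AMP response factor, gave −0.34 ± 0.17, and its other tested probe sets gave −0.45 and −0.39. The antibody means of those other probe sets, 22.55 and 21.55, were under the level for testing (an intensity of about 23.4), which they passed through their control arrays. Grk2, a kinase that desensitises receptors, gave −0.32 ± 0.17 on the brightest of its probe sets, while the other gave 0.015.

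Among 38 listed gonadal transcription factors and cofactors, 17 were tested, of which 10 were higher, 7 lower and none was called, with 2 at an unadjusted p under 0.05 (Rxrb and Nr4a1) and a median of 0.083. Over all 3169 tested genes, by their brightest probe sets, the median was 0.034 and 55.7% were higher. The median of the transcription factor list was −0.087 without control replicate 2, −0.0070 without antibody replicate 2 and 0.21 without control replicate 1, so its sign rested on single arrays. Nr0b1, which encodes the NR5A1 antagonist DAX1, had 256.1 and 242.3 after the antibody and 297.7 and 222.4 after control IgG, and the groups overlap (−0.045 ± 0.19, adjusted p = 0.972). Gata6, the other GATA gene of the postnatal testis that was tested, had 235.3 and 230.5 after the antibody and 234.4 and 204.4 after control IgG (0.083 ± 0.17). Usf1 and Usf2, the E-box binding factors known to act on rat Fshr, gave −0.048 ± 0.16 and 0.20 ± 0.20 on their brightest probe sets. Nr4a1, an orphan nuclear receptor, gave −0.87 ± 0.35 on the brightest of its probe sets, while the other gave 0.12. Cebpb, a basic leucine zipper factor, gave 0.34 ± 0.18 (adjusted p = 0.694). No probe set carried Sox9, Dmrt1, Zfpm1 or Zfpm2 as its 1 symbol, so these partners were not analysed here.

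**Figure D4:**
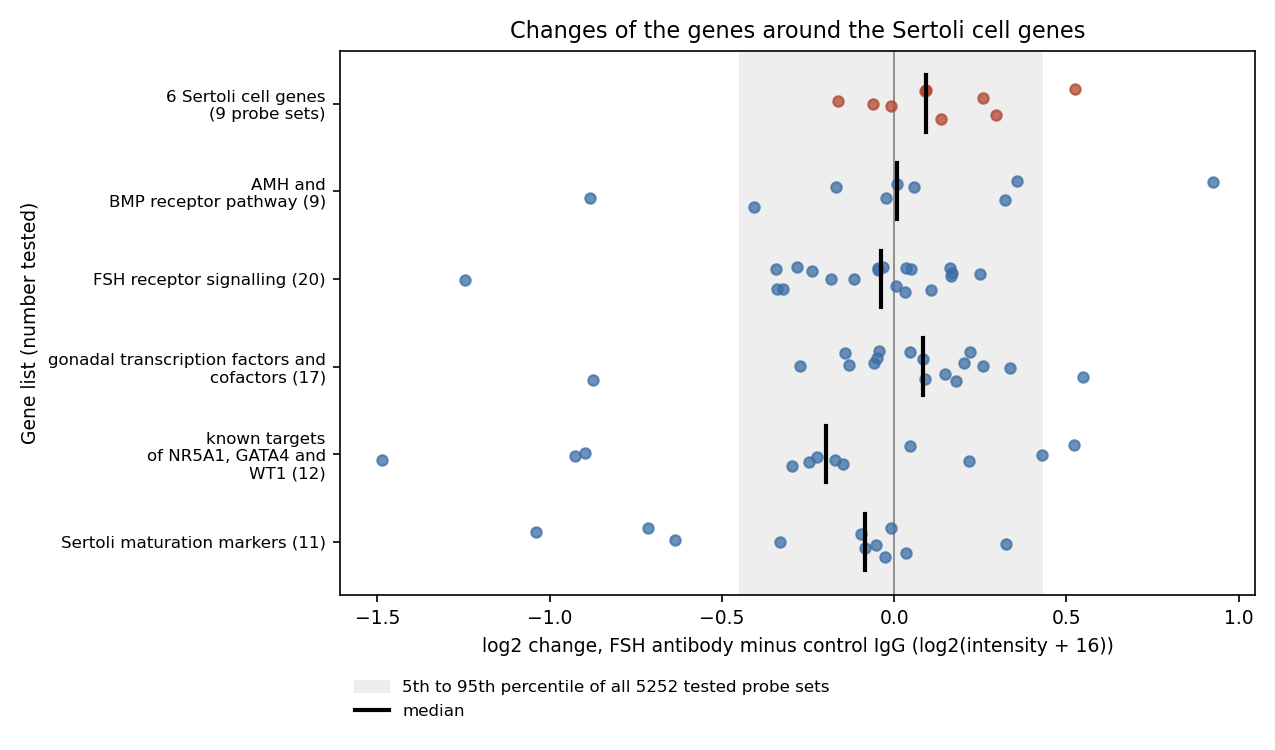
log2 change, antibody minus control, of the 9 tested member probe sets (top) and of the tested genes of 5 lists, with a black line at each median and a grey band from the 5th to the 95th percentile of all tested probe sets (−0.45 to 0.43). Of the members, Amh alone lies outside the band, and the longest tails to the left belong to the target list (Star) and the signalling list (Pde4b).

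Known targets of NR5A1, GATA4 and WT1 other than Amh had 12 tested genes of 22 listed, of which 4 were higher and 8 lower, with a median of −0.20. Of the 12, 1 was called and 5 had an unadjusted p under 0.05, against 0.267% and 8.11% over all tested probe sets. The list was chosen with earlier results of these data known, so these counts do not measure an enrichment. Star, the protein that brings cholesterol into mitochondria, had 25.5 and 12.8 after the antibody and 75.9 and 86.2 after control IgG. The antibody mean of Star, 19.15, was under the level for testing (an intensity of about 23.4), which Star passed through its control arrays. Antibody replicate 1 was above that level and antibody replicate 2 under it. With that limit, Star was called lower by limma (−1.49 ± 0.23, adjusted p = 0.0418). That call ended with quantile normalization, median centring, a constant of 1, no filter, no moderation or either control array left out, with adjusted p from 0.0570 to 0.718. With the 60th percentile filter this Star probe set was not tested, as its mean lay at the 52.0th percentile. A second tested Star probe set had 19.9 and 7.5 after the antibody and 60.5 and 59.2 after control IgG. It too had an antibody mean, 13.7, under the level for testing, and it was not called (limma, −1.38 ± 0.25, adjusted p = 0.0653). Fdx1, the electron carrier of mitochondrial steroid enzymes, gave −0.93 ± 0.19, and its second probe set gave −0.64. Inha, the inhibin alpha subunit, is a Sertoli cell product like Amh, and had 804.3 and 682 on the antibody arrays, against 1588.4 and 1224.2 on the control arrays (−0.90 ± 0.19, adjusted p = 0.122). Another Inha probe set gave −0.49 ± 0.24. Amh and Inha therefore had opposite signs on the same arrays, and neither passed. Cyp11a1, which cleaves the cholesterol side chain, gave 0.52 ± 0.21 (adjusted p = 0.580).

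Among 17 other markers of Sertoli cell maturation 11 were tested, of which 2 were higher, 9 lower and none was called, with a median of −0.085. Of the 11, 3 had an unadjusted p under 0.05, against 8.11% of all tested probe sets, in a list chosen with earlier results known. The list was not split by whether a marker rises or falls with maturation, so these counts give no direction of maturation. Gja1, the gap junction protein connexin 43, had 24 and 24.4 after the antibody and 45.1 and 55.1 after control IgG (−0.71 ± 0.20, adjusted p = 0.353), with the antibody arrays close to the level for testing. Cdkn1a, an inhibitor of cyclin-dependent kinases, had 22.4 and 25.5 after the antibody and 55.3 and 78.5 after control IgG (limma, −1.04 ± 0.21, adjusted p = 0.122). Its antibody arrays too were close to the level for testing (an intensity of about 23.4). A further Cdkn1a probe set gave −0.97, but its antibody mean, 14.15, was under that level, which it passed through its control arrays. Ccnd2, a G1 cyclin, gave −0.64 ± 0.18 and −0.46 on its other probe set.

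Signs of other cells were read from marker lists, each summed over the brightest probe set of every measured gene, and their part in the results above was not tested. Sertoli cell markers without the 6 genes (17 of 23 measured) summed to 14873.5 and 16081.1 on the antibody arrays, against 17092.1 and 15939.5 on the control arrays. Most of that sum came from Clu and Aard, and single Sertoli markers had log2 changes of both signs. Of 15 tested, 8 were higher and 7 lower, 1 was called and 8 had an unadjusted p under 0.05, with a median of 0.033. Over all tested probe sets 0.267% were called and 8.11% had an unadjusted p under 0.05. The list was chosen with earlier results of these data known, so its counts do not measure an enrichment. The called marker was Testin, a protein secreted by Sertoli cells, which was named after its values were seen. Testin had 114.4 and 127.9 on the antibody arrays, against 28.2 and 33.1 on the control arrays, a log2 change of 1.56 ± 0.18 (limma, adjusted p = 0.0152). Its call ended with quantile normalization, no filter, no moderation or either control array left out, with adjusted p from 0.0615 to 0.686. Serpina5, a serine protease inhibitor also named after its values were seen, had 350.9 and 314.6 after the antibody and 682 and 671.3 after control IgG (−0.99 ± 0.16, adjusted p = 0.0541). Leydig cells also make Gata4 and Nr5a1. Their markers (9 of 12 measured) summed to 2292.3 and 2531.2 after the antibody and 2908.7 and 2911.8 after control IgG. The sum was thus lower on the antibody arrays, but most of it came from Cyp17a1. That gene had 1361 and 1653.3 after the antibody and 1730.4 and 1651.1 after control IgG, and its groups overlap. Of 9 tested Leydig markers, 3 were higher and 6 lower, with 1 called, Star. Red cell precursors also make Gata1, and erythroid markers (5 of 18 measured) summed to 2001.9 and 2296.5 after the antibody and 2165.5 and 3668 after control IgG. Control replicate 2 was highest in that sum and also in Gata1. The other arrays did not keep the same order: antibody replicate 1 was lowest in the sum but above control replicate 1 in Gata1 (104.9 against 96.2). Alas2, the erythroid heme enzyme, had 72.8 and 51.9 after the antibody and 158.4 and 218 after control IgG (limma, −1.38 ± 0.21, adjusted p = 0.0418). The Alas2 call ended in the settings that ended that of Star and also without the intensity trend, with adjusted p from 0.0516 to 0.724. Hbb, a beta globin gene, had 1150.7 and 1356.6 after the antibody and 1253.2 and 2260 after control IgG. Most of the erythroid sum came from Hbb and Hbb-b1, and the groups of both overlap. Of 4 tested erythroid markers, 1 was higher and 3 lower. The higher one, Slc4a1, had 133.7 and 93.2 after the antibody and 100.9 and 97.6 after control IgG. The defining red cell regulator Klf1 had no probe set with that 1 symbol, and Epor read between 4 and 9.1.

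Germ cell markers (18 of 20 measured) summed to 2502.2 and 1797.9 on the antibody arrays, against 2086.1 and 3259.3 on the control arrays. These sums differed within each treatment more than between treatments. Of 15 tested germ cell markers, 5 were higher, 10 lower and none was called, with a median of −0.27, against 0.034 over all tested genes. Ldhc, the germ cell lactate dehydrogenase, had 143.6 and 41.3 after the antibody and 41.6 and 333.6 after control IgG. The transition protein gene Tnp1 of spermatids had 23.2 and 43.3 after the antibody and 30.1 and 19.5 after control IgG. Peritubular myoid and smooth muscle markers (9 of 9 measured) summed to 4420.4 and 3399.9 after the antibody and 3898.1 and 4168.2 after control IgG. In that list Acta2, smooth muscle actin, had 1932.9 and 1144.2 after the antibody and 1443.5 and 1292.5 after control IgG. Replicate 1 was thus the higher array for Acta2 in each treatment, while in the sum of the list control replicate 2 was the higher control array. Macrophage markers (7 of 11 measured) summed to 276.6 and 291.3 after the antibody and 251.7 and 230.9 after control IgG. Of 4 tested, 2 were higher, 2 lower and none was called. Lyz2, the brightest of them on every array, had 120.8 and 138.1 after the antibody and 100.1 and 62.8 after control IgG. C1qb went the other way, with 18.7 and 17.3 after the antibody, under the level for testing, and 31.3 and 49.2 after control IgG. Cd68 had no probe set with that 1 symbol. No measured marker of these lists was listed at 0 on any array.

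Every probe set's log2 change was recomputed under 13 other settings of the processing. That of Amh stayed between 0.46 and 0.59, with an unadjusted p from 0.00545 to 0.0458 and an adjusted p from 0.238 to 0.948. That of Nr5a1 stayed between 0.046 and 0.12 and that of Gata1 between −0.32 and −0.012. Leaving out 1 array turned the sign of Gata4 L22761_at, Wt1 X69716_at and Wt1 rc_AA965119_at. No member was called in any of the 13 settings.

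**Figure D5:**
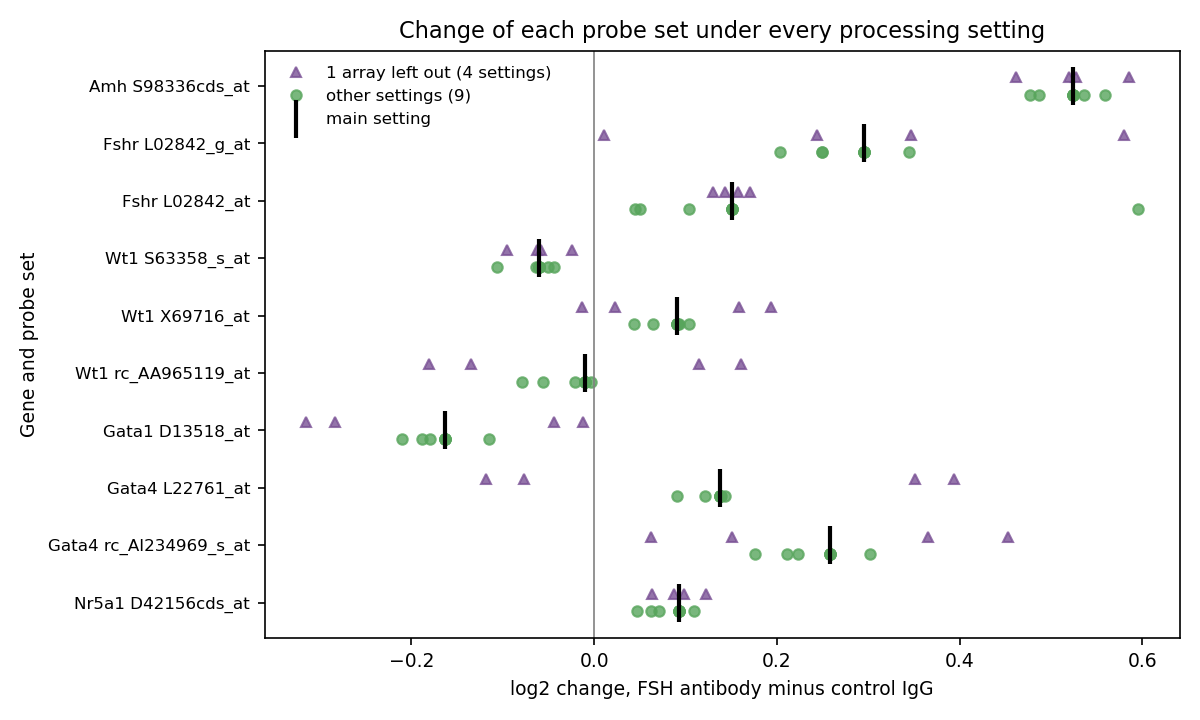
log2 change of each of the 10 probe sets, antibody minus control, in the main setting (black bar), with 1 array left out (triangles, 4 settings) and in the 9 other settings (circles). Amh stays between 0.46 and 0.59, while triangles of Gata4 L22761_at and of 2 Wt1 probe sets fall on both sides of 0.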

How the data were processed

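The authors deposited an intensity on a linear scale for each probe set and array. Software and background correction: not given in the sources used here. Each array's mean, trimmed by 2% at both ends, came to 125, so the arrays had already been scaled alike. Array medians ran from 36.5 to 40.4. No detection calls were used, so signal over background is unknown, and the number of arrays limits the precision.

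Symbols came from the platform annotation, updated by Entrez identifier through RefSeq (GRCr8): 7018 probe sets had 1 symbol, 308 several and 1473 none. Groups came from the source names. After leaving out 59 control probe sets, log2(intensity + 16) was tested where its mean reached the array's 40th percentile (5252 probe sets), with limma's lmFit and eBayes, trend included (limma 3.58.1, R 4.3.3), two-sided, Benjamini-Hochberg adjusted, threshold 0.05. The functions were tested on simulated data.

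Named were all member probe sets, the 3 genes with the smallest p per pathway list and any called there, the 3 nearest patterns per member, and fixed partners and markers. Members, lists and tests were chosen with earlier results of these data known; no gene list was tested as a set. Alternatives were quantile normalization, median centring, a constant of 1 or 64, no filter or the 60th percentile, no trend, no moderation, each array left out in turn, a block for the replicate number and, for lists, averaging all probe sets of a gene.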

Additional observations from a re-analysis of the deposited data

How the results depend on the processing

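Against 14 called probe sets, limma called 0 with quantile normalization, 4 with median centring, 0 with no filter and 0 without moderation. At an unadjusted p under 0.05 these settings gave 420, 404, 702 and 352. Further, leaving out 1 array gave 0 to 153: 0 without control replicate 1 or 2 (370 and 270 at an unadjusted p under 0.05), 153 without antibody replicate 1 and 94 without antibody replicate 2. Fits without 1 array have 1 residual degree of freedom and assume that the lone array varies like the other group. With the replicate number as a block 39 were called. The numbers share no stated origin, and same-numbered arrays did not deviate together (correlation of deviations 0.0039 over 5252 probe sets). Without 1 array, the change of Gata4 L22761_at ran from −0.12 to 0.39, that of Wt1 rc_AA965119_at from −0.18 to 0.16, that of Wt1 X69716_at from −0.013 to 0.19, the median of the FSH receptor signalling list from −0.13 to 0.061, and that of the gonadal transcription factor list from −0.087 to 0.21. The cause was not tested. The other 7 member probe sets kept their direction in all 13 settings, and 0 members were called in each.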
